A study of Mus musculus with 6 samples.

Results

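The paraoxonase gene cluster of the mouse holds 3 genes, Pon1, Pon2 and Pon3, which lie side by side on chromosome 6 and are all transcribed from the minus strand. H3K4me3 peaks were taken at these genes in striatal progenitor cells. A gene's promoter counted as marked if at least 1 peak touched the 1 kb on either side of any of its transcript starts in the annotation. Every peak in the interval from the first to the last base of the 3 genes, with 50 kb on each side, was also collected. The 3 genes stood among 21911 protein-coding genes, and the interval held 29 of the 227418 peaks deposited. Pon3 was selected on its difference between the wild-type and mutant vehicle controls in earlier work on these same lists, so that difference is given as a description and was not tested.

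H3K4me3, trimethylation of lysine 4 of histone H3, marks the promoters of genes that are active or poised. It was mapped by ChIP-Seq in conditionally immortalised STHdh cells, murine lines of labelled strain C57BL/6 that carry either wild-type huntingtin (genotype label STHdh7, here STHdhQ7) or mutant huntingtin with an expanded glutamine tract, knocked in on both alleles (STHdhQ111). Each genotype is represented by 1 line, so genotype and line cannot be told apart. All cells spent 24 hours in serum-free medium, and the vehicle was DMSO. Q7SST denotes the vehicle control of the wild-type line and Q111SST that of the mutant line. In the remaining 4 conditions, mutant cells received 10 uM of cyproheptadine, loxapine, diacylglycerol kinase inhibitor II (DKI) or meclizine. There was 1 peak list per condition, and whether the 3 treatments described in the design were pooled is not stated. No replicate spread exists, no test between conditions was made, and every difference below describes these 6 lists.

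Paraoxonases are calcium-dependent lactonases. PON1 and PON3 are best known as liver enzymes that are secreted and carried on high-density lipoprotein, where they act against lipid peroxidation. PON2 stays inside cells, is made in many tissues including brain, and is found at mitochondria and the endoplasmic reticulum, where it limits oxidative damage. A gene that many tissues use commonly has a promoter rich in CpG dinucleotides, and such promoters carry H3K4me3 widely. Genes limited to a few tissues more often have promoters poor in CpG.

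The 250 bases before each RefSeq start are shown first, because the 3 promoters differ in the lists that marked them and also in their sequence. All 3 windows lie on the minus strand of GRCm38 and are written 5′ to 3′ towards the start. They cover chr6:5193947-5194196 for Pon1, chr6:5298341-5298590 for Pon2 and chr6:5256234-5256483 for Pon3. Capitals mark matches, on either strand, to GGGCGG (the GC box bound by Sp1 family factors) and GCGTG (the core of the aryl hydrocarbon receptor site).
Pon1: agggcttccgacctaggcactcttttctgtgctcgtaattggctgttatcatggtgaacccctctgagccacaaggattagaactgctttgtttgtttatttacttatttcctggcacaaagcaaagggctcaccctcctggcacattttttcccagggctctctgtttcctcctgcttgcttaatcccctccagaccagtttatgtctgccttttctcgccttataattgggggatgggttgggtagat
Pon2: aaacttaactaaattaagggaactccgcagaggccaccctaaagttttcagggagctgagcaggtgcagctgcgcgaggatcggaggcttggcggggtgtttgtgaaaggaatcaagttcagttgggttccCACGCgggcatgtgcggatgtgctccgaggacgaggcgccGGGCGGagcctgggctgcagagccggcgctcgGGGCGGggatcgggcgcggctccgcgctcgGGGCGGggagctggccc
Pon3: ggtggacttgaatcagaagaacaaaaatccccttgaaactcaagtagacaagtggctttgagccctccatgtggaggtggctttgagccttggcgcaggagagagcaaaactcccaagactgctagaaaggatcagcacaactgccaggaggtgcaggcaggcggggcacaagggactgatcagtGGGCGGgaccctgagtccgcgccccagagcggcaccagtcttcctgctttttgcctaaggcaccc

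The Pon2 window held 24 CpG dinucleotides, the Pon3 window 6 and the Pon1 window 3, against a median of 10 over 20150 RefSeq windows of 16522 coding genes. GC content was 65.6% for Pon2, 56.8% for Pon3 and 47.6% for Pon1, against a median of 56.0%. The Pon2 window had 3 GC boxes, 79, 47 and 17 bp before the start, and 1 reverse-strand match to the aryl hydrocarbon receptor core 119 bp before it. The Pon3 window had 1 GC box, 65 bp before the start. The Pon1 window matched none of the letters searched. TATAAA, the TATA box, had no match in any of the 3 windows. An antioxidant response core, TGACNNNGC, had none either. Over all windows, the GC box was present in 44.1%, the receptor core in 34.7%, the antioxidant core in 10.6% and the TATA box in 11.2%. Motif distances are counted from the RefSeq starts, at chr6 positions 5193946 for Pon1, 5298340 for Pon2 and 5256233 for Pon3. Peak edges below are counted from the GENCODE gene starts, at 5193946, 5298455 and 5256286, which lie further upstream for Pon2 and Pon3, so the distances are not on the same scale. The matches describe letters in these windows and are not evidence that a factor is bound.

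The 3 genes fell into 3 different patterns. Pon2 was marked in all 6 lists, Pon3 in the 5 mutant lists and not in Q7SST, and Pon1 in none. Q7SST therefore marked 1 of the 3 genes and each mutant list marked 2. Over all coding genes, the marked share was 59.9% in Q7SST, 58.4% in Q111SST, 55.8% with DKI, 58.6% with meclizine, 55.4% with cyproheptadine and 58.1% with loxapine. The Pon2 pattern, marked in all 6 lists, was shared by 53.5% of coding genes, and the Pon1 pattern, marked in none, by 37.0%. The Pon3 pattern was much less common, since 0.936% of coding genes (205) were marked in all 5 mutant lists and not in Q7SST, and 2.08% (455) were marked in Q111SST and not in Q7SST. As Pon3 was selected on that contrast, nothing is read from the small share.

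**Figure D1:**
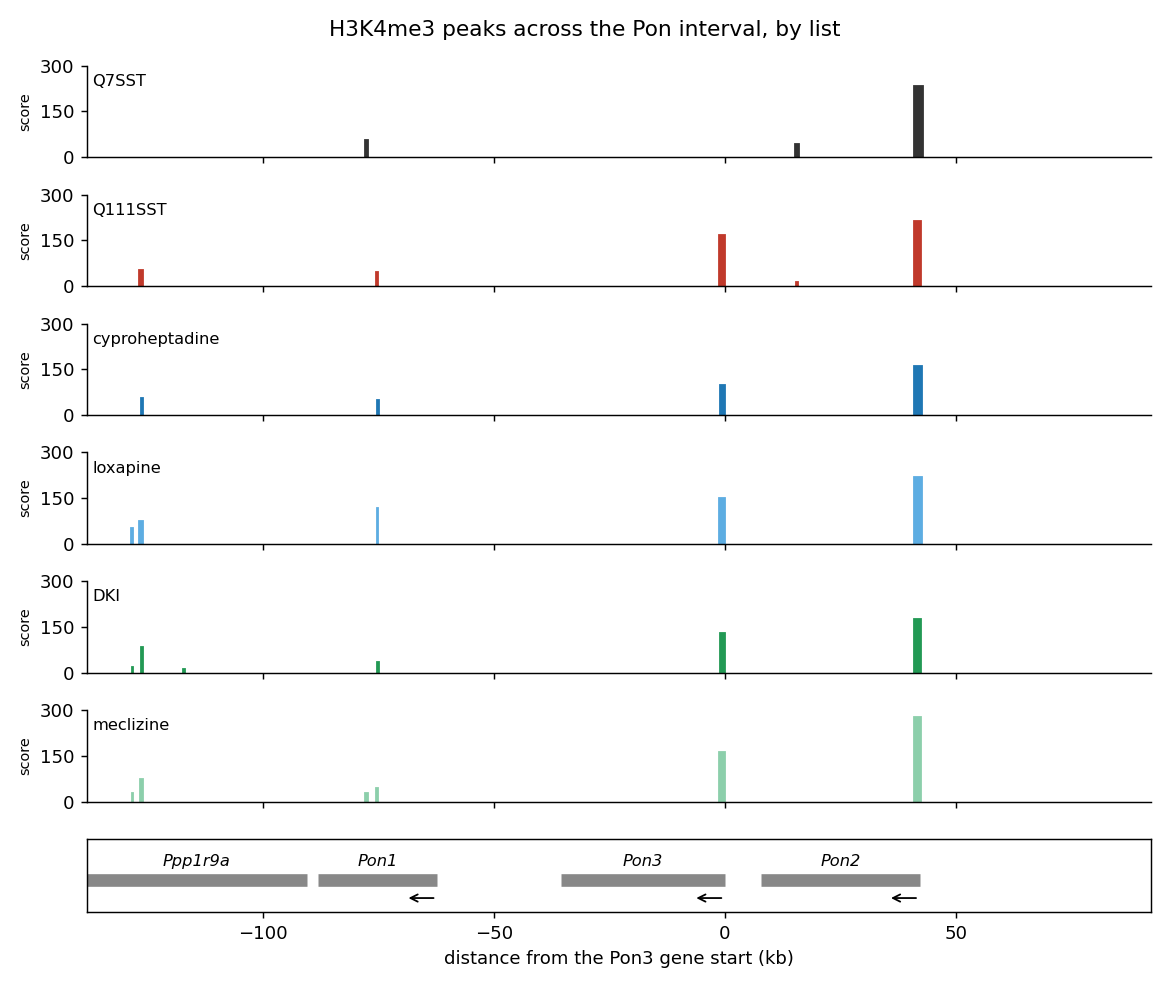
H3K4me3 peaks across the Pon interval in each of the 6 lists. The x axis is the distance from the Pon3 gene start in kb, bar height is the deposited score, bar width is the width of the peak, grey boxes are genes and arrows give the direction of transcription. A peak of score 161 to 279 stands at Pon2 in every list, and a peak of score 99 to 168 stands at Pon3 in the 5 mutant lists and is absent from Q7SST.

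Pon2, the intracellular paraoxonase (ENSMUSG00000032667.17, chr6:5264147-5298455), carried the strongest peak of the interval in every list. The deposited score of its promoter peak was 232 in Q7SST, 212 in Q111SST, 176 with DKI, 279 with meclizine, 161 with cyproheptadine and 220 with loxapine. The scale of the score and the depth behind each list are unknown, so each score was also placed among all peaks of its own list, as a percentile with 100 for the strongest. On that percentile scale the Pon2 peak stood at 99.0 in Q7SST, 98.8 in Q111SST, 98.0 with DKI, 99.5 with meclizine, 98.1 with cyproheptadine and 98.9 with loxapine. Thus Pon2 was within the strongest 2% of peaks in each list. Its rank from the top ran from 195 of 38577 with meclizine to 626 of 33721 with cyproheptadine. Marked promoters are stronger than peaks in general, with a median percentile between 76.3 (DKI) and 83.0 (loxapine). Among marked promoters alone, Pon2 stood between percentiles 95.6 (cyproheptadine) and 99.0 (meclizine).

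The Pon2 peak lay over the gene start, exon 1 and the beginning of intron 1, with coding and untranslated sequence of exon 1 inside it. It was 1929 bp wide in Q7SST, 1627 bp in Q111SST, 1592 bp with DKI, 1599 bp with meclizine, 1835 bp with cyproheptadine and 1832 bp with loxapine. The whole printed Pon2 window, with its 3 GC boxes, lay inside the peak in all 6 lists. The edge on the transcribed side hardly moved and lay between 1289 and 1335 bp past the start. The edge before the start was more variable. It lay 620 bp upstream of the GENCODE start in Q7SST, 519 bp with loxapine and 502 bp with cyproheptadine, and 309 bp with meclizine, 291 bp in Q111SST and 286 bp with DKI. The first 3 and the last 3 of these do not overlap, and 193 bp separate them. Of the 4 compounds, those that the study places in Group A (cyproheptadine and loxapine) thus had the upstream edge nearer to the wild-type line, and those of its Group B (DKI and meclizine) nearer to the mutant vehicle control.

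That split of the edges was noticed after the values were seen. Of 7540 coding genes with a peak over the gene start in all 6 lists, 4.34% had the upstream edge further out in Q7SST, cyproheptadine and loxapine than in the other 3 lists, by any amount. A difference at least as large as that of Pon2 was found at 10 genes, Pon2 included, or 0.133%. Both the split and the size were taken from the Pon2 values themselves, so nothing is read from these shares. With 1 list per condition, the spread of a peak edge between repeats of one condition is unknown.

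**Figure D2:**
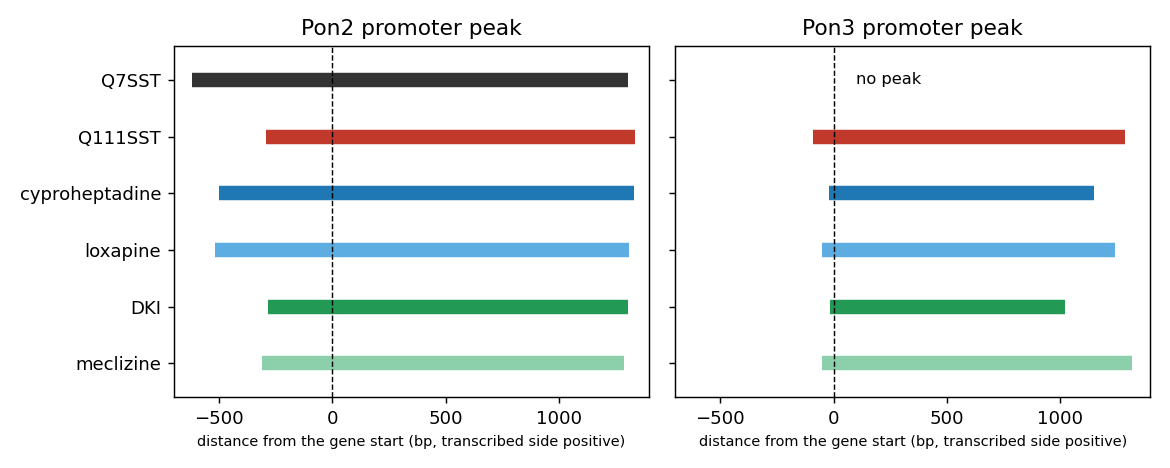
Extent of the promoter peak of Pon2 (left) and Pon3 (right) in each list. The x axis is the distance from the gene start in bp, with the transcribed side positive, and the dashed line is the gene start. The Pon2 peaks end between 286 and 620 bp upstream and between 1289 and 1335 bp downstream, whereas the Pon3 peaks reach at most 91 bp upstream and are absent in Q7SST.

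Pon3 (ENSMUSG00000029759.9, chr6:5220852-5256286), which encodes a lactonase carried on high-density lipoprotein, had a promoter peak in each list from mutant cells. Its score was 168 in Q111SST, 129 with DKI, 162 with meclizine, 99 with cyproheptadine and 149 with loxapine. As percentiles of all peaks these were 95.3 in Q111SST, 92.1 with DKI, 90.5 with meclizine, 85.7 with cyproheptadine and 92.5 with loxapine. The Pon3 peak was weaker than the Pon2 peak in each of the 5 mutant lists, and cyproheptadine gave its lowest score and percentile. Among marked promoters alone its percentile was 86.5 in Q111SST, 82.9 with DKI, 75.1 with meclizine, 64.2 with cyproheptadine and 76.1 with loxapine. In each mutant list that is above the middle of the marked promoters, and below Pon2.

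In Q7SST no peak lay within 1 kb of any of the 6 annotated Pon3 starts. The nearest Q7SST peak to one of them was 15.2 kb away, at chr6:5271496-5272280 inside Pon2, with a score of 42. The lists hold no values below their lowest score of 10, so a weaker signal at Pon3 in the wild-type line cannot be seen in them. Q7SST held 38392 peaks and the mutant lists from 30758 (DKI) to 45564 (loxapine). The part of list size and depth in the missing peak was not tested. Pon3 was named from Q7SST and Q111SST, and the 4 compound lists come from the same mutant line as Q111SST and are not independent of it.

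The Pon3 peaks were narrower than those at Pon2. They measured 1381 bp in Q111SST, 1037 bp with DKI, 1371 bp with meclizine, 1173 bp with cyproheptadine and 1293 bp with loxapine, and a stretch of 1037 bp was common to all 5. They lay almost wholly on the transcribed side of the GENCODE start, from at most 91 bp before it (Q111SST) to between 1021 bp (DKI) and 1319 bp (meclizine) past it. In this they differed from Pon2, whose peaks began at least 286 bp before the start. Each Pon3 peak covered the start, exon 1 and the beginning of intron 1 of the main transcript, which has 9 exons, and each ended within the printed Pon3 window, between chr6 positions 5256301 and 5256377.

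The 205 coding promoters marked in all 5 mutant lists and not in Q7SST were weak as a group. Their median percentile was 59.0 in Q111SST, 47.0 with DKI, 59.4 with meclizine, 48.6 with cyproheptadine and 58.8 with loxapine. Pon3 ranked 4th strongest of the 205 in Q111SST, 7th with DKI, 13th with meclizine, 9th with cyproheptadine and 6th with loxapine. It was thus among the strongest promoters with this pattern in each list, a rank that its selection in Q111SST partly fixed.

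**Figure D3:**
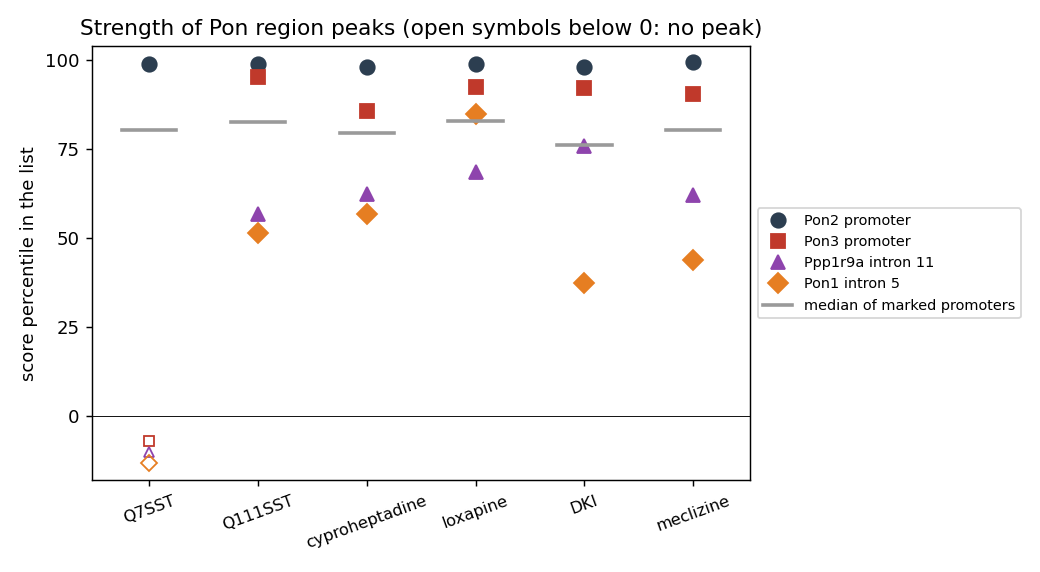
Strength of 4 peaks of the Pon interval in each list. The y axis is the percentile of the score among all peaks of the list, open symbols below 0 mark lists with no peak, and grey lines are the median of marked promoters. Pon2 stays between 98.0 and 99.5 in all 6 lists, Pon3 lies between 85.7 and 95.3 in the 5 mutant lists, and the intronic peaks in Ppp1r9a and Pon1 lie below both promoters in each list.

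Pon1 (ENSMUSG00000002588.13, chr6:5168090-5193946), which encodes the serum paraoxonase made mainly in liver, had no peak within 1 kb of a start in any list. The nearest peak to a Pon1 start was 14.8 kb away in Q7SST, 12.6 kb in Q111SST, 12.5 kb with DKI, 12.6 kb with meclizine, 12.5 kb with cyproheptadine and 12.5 kb with loxapine. All of these nearest peaks lay inside the gene, in intron 5 of its 9-exon transcript. No peak of any list lay in the 26905 bp between Pon1 and Pon3, and the 7860 bp between Pon3 and Pon2 held only the upstream ends of the Pon3 promoter peaks, of at most 91 bp. Of 7 defining liver genes (Alb, Apob, Ttr, Hnf4a, Afp, Fgb and Cyp7a1), 0 were marked in any list, where 37.0% of coding genes were marked in none.

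Intron 5 of Pon1 held different peaks in Q7SST and in the mutant lists. A region of 652 bp (chr6:5180650-5181301) was present in the 5 mutant lists and not in Q7SST. Its score was 45 in Q111SST, 34 with DKI, 46 with meclizine, 48 with cyproheptadine and 116 with loxapine. Loxapine stood apart, at percentile 84.9 of its list, and the other 4 lists lay between 37.4 (DKI) and 56.9 (cyproheptadine). Towards the end of the gene, 1.71 kb further on, Q7SST had a peak of score 57 at chr6:5178261-5178943, percentile 55.4 of its list. Meclizine was the only mutant list with a peak there, of score 28 and at percentile 23.3, and it alone held both. The pattern of Q7SST and meclizine alone was seen at 0.554% of the 61171 consensus regions, that is, peaks from any list joined wherever they overlapped.

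The 267 bases at chr6:5180898-5181164 that all 5 mutant lists covered inside Pon1 are shown because, unlike the 3 promoter windows, they hold no CpG dinucleotide. They are given on the plus strand, with nothing in capitals.
Pon1 intron 5: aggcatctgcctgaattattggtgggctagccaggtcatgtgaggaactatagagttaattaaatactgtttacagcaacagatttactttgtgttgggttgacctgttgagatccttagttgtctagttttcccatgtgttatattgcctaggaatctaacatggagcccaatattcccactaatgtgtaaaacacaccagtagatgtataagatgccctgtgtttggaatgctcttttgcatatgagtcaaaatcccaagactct
Their GC content was 39.7%, and none of the stretch was masked as a repeat. The stretch lies on the transcribed side of the Pon1 starts, at the distances given above.

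In the whole interval (chr6:5118090-5348455, 230366 bp) there were 3 peaks in Q7SST, 5 in Q111SST, 6 with DKI, 6 with meclizine, 4 with cyproheptadine and 5 with loxapine. The order of the lists depended on the settings. With peaks of score 47 or more only, loxapine held 5, cyproheptadine 4, Q111SST, DKI and meclizine 3 each and Q7SST 2, and without the flanks each list held 3 or 4. The deposited peaks covered 1.47% of the interval in Q7SST, 2.21% in Q111SST, 1.83% with DKI, 2.11% with meclizine, 1.70% with cyproheptadine and 2.18% with loxapine. Merging gave 8 consensus regions, of which the Pon2 promoter was the only one present in all 6 lists, a pattern of 35.1% of consensus regions in the genome. In the interval, 3 of the 8 regions were in all 5 mutant lists and not in Q7SST, a pattern of 6.01% of regions genome-wide. The Pon3 promoter was selected on this contrast, which leaves 2 regions beside it, and nothing is read from the share. The 3 were the Pon3 promoter, the region in Pon1 intron 5 just described, and a region in intron 11 of Ppp1r9a.

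Ppp1r9a encodes neurabin, an actin-binding scaffold of neurons, and its last introns reach into the interval. The shared region there (chr6:5129300-5130291) had scores of 52 in Q111SST, 84 with DKI, 74 with meclizine, 55 with cyproheptadine and 73 with loxapine. It lay between percentiles 56.9 (Q111SST) and 75.8 (DKI). A nearby region in the same intron (chr6:5127563-5128162) was in 3 compound lists only, with scores of 50 for loxapine, 28 for meclizine and 20 for DKI. A peak of score 11 in intron 12 was present with DKI alone. Inside Pon2, a region over intron 5 (chr6:5271496-5272280), which is also exon 5 of a shorter Pon2 transcript, had a score of 42 in Q7SST and 12 in Q111SST. It was absent from the compound lists, a pattern of 0.824% of consensus regions.

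At the promoters of the 3 genes, none of the 4 compounds added or removed a peak relative to Q111SST. Over all coding genes, the share that gained a peak was 1.02% for meclizine, 1.01% for loxapine, 0.306% for cyproheptadine and 0.269% for DKI. The share that lost its peak was 3.33% for cyproheptadine, 2.88% for DKI, 1.24% for loxapine and 0.799% for meclizine. The order of the compounds in these shares depended on the settings. With lists of equal size, losses went from 729 to 443 genes for cyproheptadine, from 632 to 328 for DKI and from 271 to 415 for loxapine, and gains for DKI from 59 to 181. The count of 0 among 3 genes is near these background shares. The 4 compounds were used at the same dose and time. In percentile, Pon3 was below its Q111SST level of 95.3 with all 4 compounds, and Pon2 was above its Q111SST level of 98.8 with meclizine and below it with cyproheptadine and DKI. With loxapine Pon2 stood at 98.9, but among marked promoters at 96.7 against 97.0 in Q111SST, so no direction is given. The Q111SST level of Pon3 is the value it was selected on, so lower values elsewhere are not read as a change. The 4 comparisons share the single Q111SST list, and without repeats the intervals of these differences cannot be given.

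The sequence around the starts was compared between patterns in a window of 500 bp centred on each gene start, a window chosen after the values were seen. Pon2 had 38 CpG dinucleotides there, Pon3 10 and Pon1 7. Genes marked in all 6 lists had a median of 38, with quartiles of 25 and 50, so Pon2 stood at their middle. The 205 genes marked in the 5 mutant lists and not in Q7SST had a median of 13 with quartiles of 7 and 28, and Pon3 lay within these quartiles. The 8112 genes marked in no list had a median of 5 with quartiles of 2 and 12, and Pon1 lay within those. Over all 21911 coding genes the median was 23 and the quartiles 6 and 42. The 610 genes marked in Q7SST and in none of the mutant lists had a median of 25. The quartiles of the genes marked in all 6 lists and of those marked in none did not overlap, and the genes with the Pon3 pattern overlapped both.

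**Figure D4:**
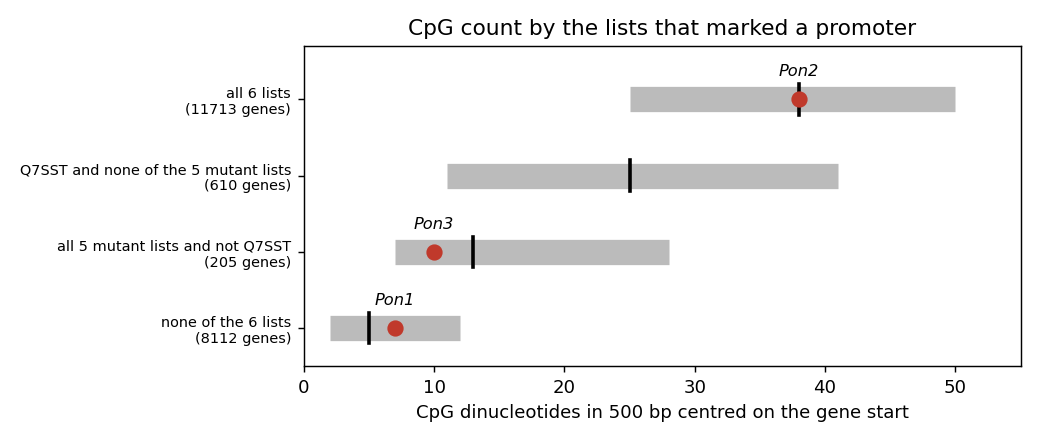
CpG dinucleotides in 500 bp centred on the gene start, by the lists that marked the promoter. Grey bars run from the lower to the upper quartile of the genes in each pattern, black lines are medians and red points are the 3 paraoxonase genes. Pon2 (38), Pon3 (10) and Pon1 (7) each fall within the quartiles of their own pattern. Each also falls within, or on the edge of, the quartiles of another pattern shown.

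The Pon2 promoter region had 3.94 CpG per 100 bp, the Pon3 promoter region 1.56 and the region in Pon1 intron 5 shared by the mutant lists 0.767, against 1.04 over the whole interval. The Q7SST region in Pon1 intron 5 had 2.49 per 100 bp and the shared Ppp1r9a region 1.92.

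The genes on either side of the cluster include Sgce and Peg10, an imprinted pair expressed from the paternal allele. Of the 9 other coding genes with a start within 1 Mb of the interval, 7 were marked in Q7SST, 9 in Q111SST, 7 with DKI, 9 with meclizine, 7 with cyproheptadine and 9 with loxapine. Per list that is 7 or 9 of 9, against the shares of all coding genes given above, 55.4% to 59.9%. In all 6 lists 5 of the 9 were marked, against 53.5% of coding genes, namely Casd1, Sgce, Peg10, Pdk4 and Slc25a13. No neighbour reached the percentile of Pon2 in any list, and none reached that of Pon3 in a mutant list. The highest neighbour value was 83.8, for Dync1i1 in Q7SST, over an internal transcript start.

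Only Col1a2 and Asb4 among the 9 neighbours were marked in Q111SST and not in Q7SST, a pattern of 2.08% of coding genes, and 0 of 9 showed the reverse. Col1a2, which encodes a chain of type I collagen, had percentiles of 70.2 in Q111SST, 48.9 with DKI, 62.1 with meclizine, 60.2 with cyproheptadine and 65.6 with loxapine. Its peaks lay 862 to 1000 bp from the gene start in the mutant lists and 2202 bp from it in Q7SST, so its pattern rests on the 1 kb window. Asb4, a subunit of a ubiquitin ligase, was marked at 25.9 in Q111SST, 39.5 with loxapine, 41.9 with DKI and 53.5 with meclizine, over an internal transcript start and not the start of the gene. Pon3 differed from both, since its peaks covered the gene start itself. Ppp1r9a, next to Pon1, stood at 74.5 in Q7SST, 36.8 in Q111SST, 52.8 with loxapine and 27.6 with meclizine, and had no promoter peak with cyproheptadine or DKI. The values of Q7SST, Q111SST and meclizine equal those of a peak inside the gene, at chr6:5110117-5110514 in Q7SST. Loxapine had no peak there, so these Ppp1r9a values need not belong to the same peak. Pdk4, a kinase that restrains pyruvate oxidation, ran from 25.6 with cyproheptadine to 68.6 in Q7SST.

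**Figure D5:**
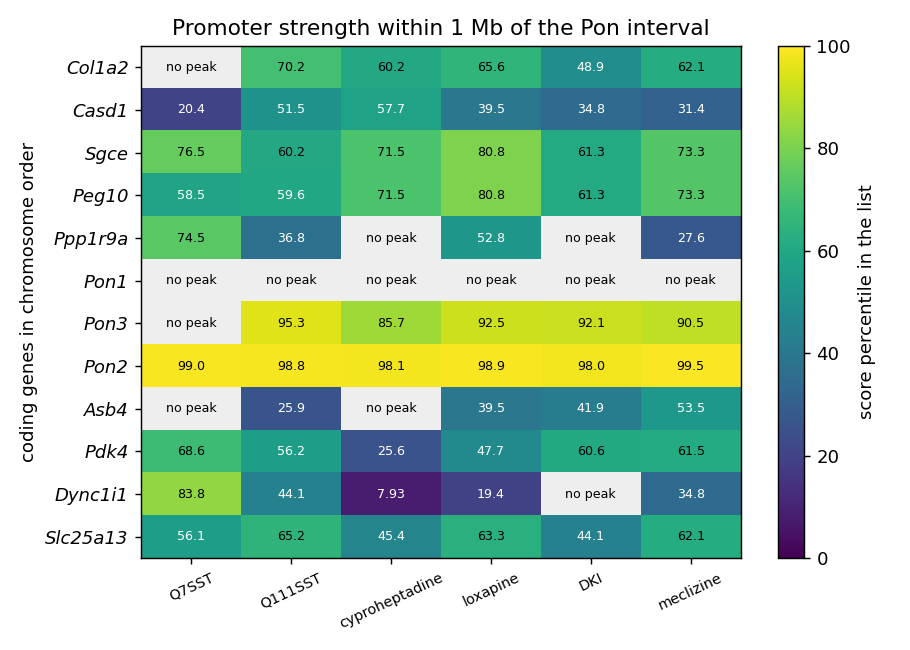
Strength of every coding promoter within 1 Mb of the Pon interval, in chromosome order. Colour and number give the percentile of the strongest promoter peak among all peaks of the list, and grey cells have no peak. Pon2 holds the highest value of each column, Pon3 the next highest in the 5 mutant lists, and Pon1 is the only gene with no peak in any list.

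The genes with the most similar strengths were found by the mean absolute difference in percentile over the 6 lists, counting an unmarked promoter as 0. For Pon2 they were Cep97 with a difference of 0.271, Ddx23 with 0.278, Polrmt with 0.311, Thg1l with 0.311 and Cntd1 with 0.325, in percentile points. For Pon3 they were Tep1 with 1.77, Mst1 with 2.05, Scn3a with 2.21, Zfp182 with 2.51 and Mfsd10 with 2.65. Each of these was unmarked in Q7SST, which the measure largely fixes, since Pon3 counts as 0 there. None of the 10 lies on chromosome 6. The measure says that the values are alike over 6 lists and nothing about shared control.

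Genes that work with paraoxonases on lipoproteins were examined as a list of 10. It counted 8 marked promoters in Q7SST, 6 in Q111SST, 5 with DKI, 6 with meclizine, 6 with cyproheptadine and 6 with loxapine. The marked shares of all coding genes were 59.9% in Q7SST and 55.4% to 58.6% in the mutant lists, so the counts of 5 or 6 of 10 in the mutant lists are near the background. The 5 marked in all 6 lists, a pattern of 53.5% of coding genes, were Pltp (phospholipid transfer protein), the cholesterol exporters Abca1 and Abcg1, the lipoprotein receptor Scarb1 and the lipase Pla2g7. The median percentile of the marked members was 61.5 in Q7SST, 74.0 in Q111SST, 72.6 with DKI, 76.6 with meclizine, 63.5 with cyproheptadine and 71.3 with loxapine, each below the median of all marked promoters of the same list. Apoa1, the main protein of high-density lipoprotein, and Apoe were marked in Q7SST only, at 59.1 and 16.9, a direction opposite to that of Pon3. Clu, which encodes clusterin, was marked in all lists but DKI, at 32.6 to 52.3. Lcat, the enzyme that esterifies cholesterol on these particles, and Mpo were marked in none.

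Of 10 genes for transcription factors that have been reported to act at paraoxonase genes, 9 were marked in all 6 lists, a pattern of 53.5% of coding genes. Their counts were 10 in Q7SST, 9 in Q111SST, 9 with DKI, 10 with meclizine, 9 with cyproheptadine and 10 with loxapine. Srebf2, which encodes the sterol-regulated transcription factor SREBP-2, stood between 95.8 and 99.0, and Nfe2l2, which drives the antioxidant response, between 94.5 and 99.6. Sp1 stood between 75.3 and 90.2, Ahr between 80.5 and 93.3 and Pparg between 29.8 and 61.4. Nr1h4, the bile acid receptor that is strongest in liver and intestine, was marked in Q7SST at 26.8, with loxapine at 25.9 and with meclizine at 27.6. Of the 10 factors, Nr1h4 alone varied between lists in being marked.

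The lines were also checked against cell type markers, whose counts are to be read beside the marked shares of all coding genes, 59.9% in Q7SST and 55.4% to 58.6% in the mutant lists. Of 6 neural progenitor genes, between 4 and 6 were marked per list, with Vim, Notch1 and Hes1 marked in all 6, and the others differed in both directions. Sox2 was marked in the mutant lists and not in Q7SST, Nes stood at 90.7 in Q7SST and at 32.2 to 68.5 in 4 mutant lists with no peak with cyproheptadine, and Msi1 was marked in Q7SST, loxapine and meclizine alone. Of 13 striatal lineage genes 10 were marked in Q7SST and 6 or 7 in the mutant lists, the latter near that background, with Dlx1, Dlx2, Ebf1, Foxp1 and Meis2 in all 6 and Isl1, Drd1 and Drd2 in none. The mature neuron genes Rbfox3, Snap25 and Gad2 were marked in no list, and the 6 mature neuron genes gave 1 or 2 marked promoters per list. Of these, Syt1 was marked in all 6 lists at percentiles 64.1 to 94.2, Syp in Q7SST alone at 64.0 and Gad1 with loxapine alone at 0.748. Of 6 fibroblast genes 3 were marked in Q7SST and 4 in each mutant list, and the gene that differed was Col1a2. Of those marked in all 6 lists, Dcn stood at 66.4 in Q7SST and at 25.6 to 48.2 in the mutant lists. Col1a1 and Pdgfra differed from Q7SST in both directions. Of 8 glial and blood cell genes 0 were marked in Q7SST and 1 or 2 in the mutant lists, where Gfap was marked in all 5. Sox2, Gfap and Col1a2 thus had the same pattern as Pon3, and Apoa1 and Apoe the reverse, being marked in Q7SST alone. For Col1a2 that pattern rests on the 1 kb window, as given above. The part of such differences between the lines in the Pon3 result was not tested.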

How the data were processed

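H3K4me3 ChIP-Seq was performed by the study on MNase-digested chromatin from crosslinked cells, with single-end reads of 50 bases. The submitters' processing notes name Trimmomatic 0.36, Bowtie2, SAMtools 1.3, MACS2 and mm10, with no parameters. The deposited lists give a position and a whole-number score for each peak. The authors' score has no stated scale, and its lowest value was 10 in each list. Read totals were not used here, so depth is unknown, and a shorter list may reflect fewer reads.

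Groups were taken from the sample labels, with 1 list per condition. Peaks were compared with GRCm38 and the GENCODE mouse release M21 annotation, coordinates were counted from 1, and peaks past a chromosome's last base were found on 0 of 21 chromosomes. Overlap meant at least 1 bp. Strength was the percentile of the strongest peak within 1 kb of a start. Sequences came from the RefSeq promoter and genome files of GRCm38. The named genes were the 3 members, the lists of lipoprotein partners, transcription factors and cell type markers, coding genes within 1 Mb, and the 5 genes most similar in strength to each marked member. The members and lists were chosen with earlier results of these data known. Of the cell type markers, 1 gene is not reported here. No test was made.

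In a simulated list on chromosome 6, 200 peaks were planted over 1112 genes, some of them more than 1 kb from a start. Of the genes that a direct check of every start placed within 1 kb of a planted peak, 100% were recovered with the same score. Both used the same rule, so this checks the coding of the rule and nothing about the deposited peaks. Python 3.11.15, numpy 2.4.6 and pandas 2.3.3 were used.

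Alternatives were a peak over the start itself, a window of 5 kb, the start of the gene record only, lists of the strongest 30758 peaks, scores of at least 47 (the pooled median), merging of peaks within 1 kb, flanks of 0 or 100 kb, and ranks among marked promoters.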

Additional observations from a re-analysis of the deposited data

How the results depend on the processing

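The number of marked paraoxonase promoters was the same under all 36 combinations of list and alternative, 1 in Q7SST and 2 in each mutant list. These alternatives could not have changed it. The Pon2 and Pon3 peaks lay over the gene starts at scores of 99 to 279, above the stricter threshold. Where a promoter was unmarked, the nearest peak was 12.5 to 15.2 kb away, beyond the 5 kb window. The number of peaks in the interval moved more. With a flank of 100 kb it became 5 in Q7SST, 9 in Q111SST, 10 with loxapine and 10 with meclizine, with no flank 3 with loxapine and 3 with DKI, and at the stricter score threshold 3 in Q111SST, 3 with DKI and 3 with meclizine, since a wider or narrower interval and a higher threshold change the peaks that can be counted. The Pon2 percentile stayed between 95.6 and 99.5 under every alternative, while that of Pon3 fell to 67.8 to 90.1 at the stricter threshold and 64.2 to 86.5 among marked promoters. The first leaves out weak peaks and the second leaves out peaks away from promoters. The counts of 455 genes marked in Q111SST and not in Q7SST and of 205 marked in all 5 mutant lists and not in Q7SST ranged from 422 to 602 and from 145 to 236. Genes gained or lost against Q111SST changed by over 1.5 times in 18 of their counts. Under a peak over the start, losses became 1427 with cyproheptadine (from 729), 1100 with DKI (632), 861 with loxapine (271) and 291 with meclizine (175), and gains 151 with DKI (59) and 483 with meclizine (224). With a window of 5 kb, gains became 185 with cyproheptadine (67) and 382 with loxapine (222), and losses 279 with meclizine. With lists of equal size, losses became 443 with cyproheptadine, 415 with loxapine and 328 with DKI, and gains 128 with loxapine and 181 with DKI. At the stricter threshold, losses became 1280 with cyproheptadine and 1302 with DKI, and gains 95 with DKI and 415 with meclizine. The cause was not tested. No paired analysis was possible because there was a single list for each condition.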
